A study of Bos taurus with 10 samples.

Results

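The respiratory chain of the inner mitochondrial membrane passes electrons from NADH and succinate to oxygen, and ATP synthase uses the proton gradient that this builds to make ATP. Complex I takes electrons from NADH, complex II from succinate, complex III hands them to cytochrome c and complex IV passes them to oxygen. Most subunits are encoded in the nucleus, a smaller core by mitochondrial DNA. In lactating cattle the liver makes glucose and oxidises fatty acids, the mammary gland makes fat, lactose and protein for milk, and adipose tissue stores and releases fatty acids.

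Members were taken by gene symbol: current names starting with NDUF, UQCR, ATP5 or COX4 to COX8, and the succinate dehydrogenase genes SDHA to SDHD. The rule found 48 genes on 53 array elements, of 4366 named genes in all. There were 21 subunits of complex I, 2 of complex II, 4 of complex III, 7 of complex IV and 10 of ATP synthase. The remaining members were the complex I assembly factors NDUFAF3 and NDUFAF5, the ATP synthase inhibitor ATP5IF1, and NDUFA4L2, a paralog of the complex IV subunit NDUFA4 that is kept apart here. A further 3 genes that met the rule (ATP5MK, COX6A2 and UQCR11) lay on source plates that were not used. No mitochondrially encoded subunit, and neither cytochrome c nor c1 (CYCS, CYC1), was among the named elements. Of the 48 members, 47 had a value on every array. NDUFAF3 lacked one with the mammary gland in Cy5 and has no mammary difference.

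Bovine cDNA arrays were hybridised with RNA from cows at peak lactation, with no other treatment named: liver, mammary gland, and adipose tissue from the mesenteric, omental and subcutaneous depots. Each tissue was 1 RNA sample, set against a standard RNA mixed from tissues, on 2 arrays that carried the tissue in Cy3 and in Cy5 respectively. The labels give neither breed, age nor the number of cows behind a sample. There is thus no spread between animals and no p-value is given. A level is the log2 ratio of tissue over reference, centred so that the median spot of an array is 0. It compares a gene between tissues and not with another gene. A difference between tissues was taken within each dye orientation and averaged over both, and the figure after ± is the distance from that mean to either orientation's value, called the dye error. A gene was called different when the mean was at least 1 log2 unit (2-fold) with the same sign in both orientations. Comparisons share samples, so they are not independent of each other. The direction of the ratio is likely rather than stated, and every gene name rests on a reconstructed print layout.

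Each array had values at 15970 to 16245 of its 16416 spots. The labelled tissues were checked on marker genes. Of 3 measured hepatocyte genes, TF and SLC10A1 stood at 3.67 and 4.54 in liver and below 0 in every other tissue. APOA1 did not separate liver. It read 0.85 there, 1.86 in subcutaneous adipose tissue, 0.32 in mammary gland, 0.11 in mesenteric and 0.33 in omental adipose tissue. Of 10 measured markers of mammary epithelium the median was 3.25 in mammary gland and between -0.05 and 0.12 elsewhere, although KRT8 and KRT18 were below 0 in all 5 tissues. The 7 measured adipocyte markers had a median of 1.19 in mesenteric and 1.52 in omental adipose tissue. In the sample labelled subcutaneous adipose their median was -0.12, next to -0.18 in mammary gland and below the 0.34 of liver. The 12 myeloid markers had a median of 2.65 in the subcutaneous sample, against 1.19 and 1.53 in the visceral depots, 1.35 in liver and 0.26 in mammary gland. The subcutaneous sample therefore goes by its label below, and the visceral depots, averaged, are the main adipose comparator.

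Across tissues, mammary gland held the lowest level of most members. It was the lowest of the 5 tissues for 33 of 47 members (70.2%), against 26.8% of all named genes, and for 25 (53.2%) in both orientations, against 15.5%. Related lists leaned the same way. Mammary gland was lowest for 27 of 45 genes with symbols starting RPL or RPS (60%, and 24.4% in both orientations). For 38 mitochondrial ribosomal protein genes the count was 16 (42.1%, and 21.1%), and for 9 tricarboxylic acid cycle genes 5 (55.6% in each case). Omental adipose tissue was the highest for 21 members (44.7%), against 9.94% of all genes, and liver for 14 (29.8%), against 24.5%. In both orientations omental was the highest for 14 (29.8%, against 4.6%) and liver for 8 (17%, against 17.5%). One of the omental arrays has conflicting dye labels. Without centring, mammary gland was the lowest for 24 members (51.1%), against 15.3%, and subcutaneous adipose tissue the highest for 35 (74.5%), against 71.2%, with omental the highest for 8 (17%), against 6.11%. The median level of the 47 members was -0.51 in mammary gland, -0.02 in liver, -0.03 in mesenteric, 0.11 in omental and -0.06 in subcutaneous adipose tissue. The median of all named genes lay between -0.07 and -0.03 in each tissue.

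The complexes did not share one profile. Complex II had medians of 1.20 in liver, -0.18 in mammary gland and 0.46, 0.95 and 0.52 in mesenteric, omental and subcutaneous adipose tissue. Complex III was likewise highest in liver (0.70), followed by omental (0.56), mesenteric (0.34) and subcutaneous adipose tissue (0.10), and lowest in mammary gland (-0.51). Complex IV was instead highest in the depots (-0.01 omental, -0.16 subcutaneous, -0.18 mesenteric), lower in liver (-0.33) and lowest in mammary gland (-0.70). ATP synthase stood at -0.76 in mammary gland and between -0.22 and 0.05 in the other tissues. The 21 subunits of complex I had nearly level medians, from -0.19 in mammary gland to 0.03 in liver and in omental adipose tissue, and 12 of the 21 were lowest in mammary gland. Without centring some of these orders turned. Complex I was then lowest in mesenteric adipose tissue (0.20, against 0.36 in mammary gland), and complex III was highest in subcutaneous (1.11) and omental adipose tissue (1.10) rather than liver (1.03). Complex IV and ATP synthase were then highest in subcutaneous adipose tissue (0.85 and 0.95).

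**Figure D1:**
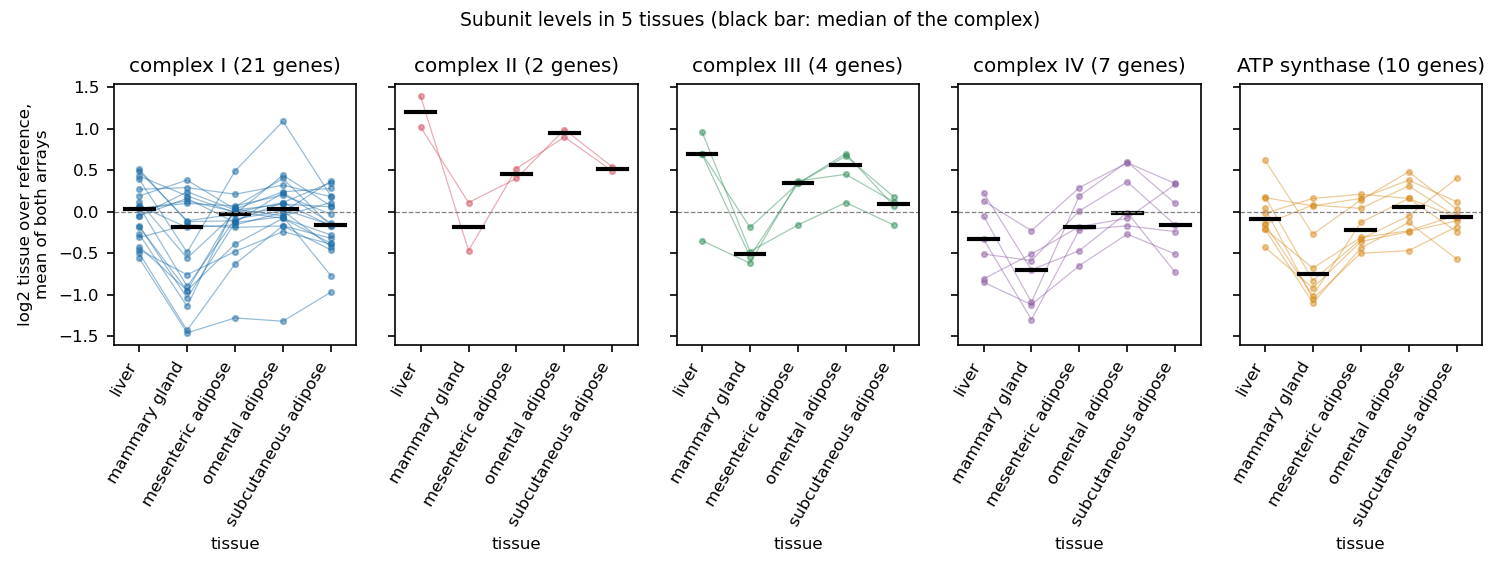
Level of each measured subunit (thin line, joining the values of 1 gene) in liver, mammary gland and 3 adipose depots, as log2 of tissue over reference on the vertical axis, mean of both arrays, with 1 panel per complex. Black bars are medians; with centred arrays the mammary bar is the lowest in every panel, from -0.18 for complex II to -0.76 for ATP synthase, and the complex II and III bars are highest in liver.

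The first comparison set mammary gland against the visceral depots. Of 47 members, 10 were lower in mammary gland and 0 higher. Among all 4318 genes compared, 6.3% were lower in mammary gland by the same rule, 3.29% higher and 9.59% called in either direction. The median of the members was -0.57, against -0.02 for all genes, and 32 members lay below 0 in both orientations and 5 above. All 7 measured complex IV subunits and both measured complex II subunits lay below 0 in both orientations. So did 7 of 10 measured ATP synthase subunits, but only 11 of 21 in complex I. With mesenteric adipose tissue alone as comparator 3 of 47 members were called, against 10.2% of all genes, and with omental alone all 10 remained, against 9.71%.

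COX5B, a peripheral subunit of complex IV on its matrix side, had the largest difference of any member here. Its level was -1.07 with the mammary gland in Cy3 and -1.12 with it in Cy5, against 0.18 and 0.21 in mesenteric, 0.73 and 0.46 in omental and 0.14 and 0.06 in subcutaneous adipose tissue, and -0.07 and -0.02 in liver. Both mammary arrays were below all 8 others. The difference from the visceral depots was -1.49 ± 0.04 (2.8-fold lower in mammary gland).

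COX7A2L, a homolog of the COX7A subunits that takes part in joining complexes III and IV into supercomplexes, was also called, at -1.10 ± 0.11. It read -1.07 and -1.53 in mammary gland, -0.23 and -0.43 in liver, -0.12 and -0.33 in mesenteric, -0.03 and -0.32 in omental and -0.06 and -0.42 in subcutaneous adipose tissue. The 3 depots and liver overlapped, and mammary gland stood below them. Its paralog COX7A2, the COX7A form found in most tissues, differed by -0.66 ± 0.20 and was not called. COX4I1, another nuclear-encoded subunit, differed by -0.67 ± 0.27, COX8A by -0.77 ± 0.01, NDUFA4 by -0.45 ± 0.20 and COX5A by -0.38 ± 0.29, none of them past the rule.

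In complex I, 3 accessory subunits were called: NDUFB8 and NDUFA10, which belong to the membrane arm, and NDUFA12, at the arm that takes up NADH. NDUFB8 read -0.75 and -1.54 in mammary gland, -0.23 and -0.32 in liver, 0.17 and -0.05 in mesenteric, 0.65 and 0.15 in omental and -0.06 and -0.28 in subcutaneous adipose tissue. Its difference was -1.38 ± 0.21, and mammary gland did not overlap any other tissue. NDUFA10 read -0.44 and -0.54 in mammary gland, 0.44 and 0.54 in mesenteric and 1.18 and 1.01 in omental adipose tissue, with 0.10 and 0.67 in liver and 0.14 and 0.23 in subcutaneous adipose tissue. Its difference was -1.28 ± 0.03, and the omental arrays were the highest of the 10. NDUFA12 read -0.95 and -1.91 in mammary gland, -0.49 and -0.51 in liver, -0.41 and -0.85 in mesenteric, 0.06 and -0.40 in omental and -0.32 and -0.61 in subcutaneous adipose tissue. The mammary arrays were far apart, and the difference of -1.03 ± 0.25 passed 1 in the Cy5 orientation (-1.28) but not in the Cy3 orientation (-0.77).

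The core subunits of complex I, which carry its electron path, were not called. NDUFV1, which binds the flavin that accepts electrons from NADH, differed by -0.31 ± 0.10, the iron-sulphur subunit NDUFS8 by 0.14 ± 0.06 and NDUFS3 by -0.16 ± 0.29. NDUFS3 was low in mammary gland (-1.24 and -1.68) and nearly as low in mesenteric (-1.35 and -1.22), omental (-1.39 and -1.25) and subcutaneous adipose tissue (-1.09 and -0.85). It was higher in liver, at -0.35 and -0.77, with its lower array just above the higher subcutaneous one. This order, with liver alone above the rest, was unlike that of NDUFB8, NDUFA10 and NDUFA12, which were highest in omental adipose tissue.

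SDHD, a membrane anchor of complex II, read -0.87 and -0.07 in mammary gland, 0.15 and 0.89 in mesenteric, 0.59 and 1.21 in omental and 0.13 and 0.86 in subcutaneous adipose tissue, and 1.19 and 1.58 in liver. The Cy5 array was the higher in every tissue, so within an orientation mammary gland was the lowest and liver the highest. The difference from the visceral depots was -1.18 ± 0.06. SDHA, the catalytic flavoprotein of the same complex, differed by -0.59 ± 0.28.

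In complex III, UQCRC2, a core protein, differed by -1.04 ± 0.11 and the hinge protein UQCRH by -1.03 ± 0.00. UQCRC2 read -0.57 and -0.50 in mammary gland, 0.16 and 0.52 in mesenteric, 0.56 and 0.77 in omental, 0.09 and 0.27 in subcutaneous adipose tissue and 0.49 and 0.89 in liver, and mammary gland alone was below 0. The 2 clones of UQCRC2 differed in size, at -1.52 ± 0.04 and -0.57 ± 0.18. UQCRH stood for 3 clones, of which 2 gave -1.46 ± 0.01 and -1.40 ± 0.15 and the third -0.23 ± 0.16. The third clone's profile over the tissues had a cosine of 0.40 and 0.30 with the other two, which matched each other at 0.99, so a wrong name for that clone is possible and was not tested. UQCRC1, the other core protein, was at -0.71 ± 0.09 and the small subunit UQCRQ at -0.46 ± 0.53, its mammary arrays reading 0.01 and -0.98.

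In ATP synthase, ATP5PO, the subunit that ties the peripheral stalk to the F1 head, differed by -1.02 ± 0.00. It read -0.85 and -1.16 in mammary gland, -0.10 and -0.19 in liver, 0.01 and -0.26 in mesenteric, 0.34 and -0.03 in omental and -0.13 and -0.35 in subcutaneous adipose tissue. Mammary gland again stood apart. The catalytic subunit ATP5F1B was at -0.82 ± 0.09 and the alpha subunit ATP5F1A at -0.57 ± 0.69, with no common sign between orientations. ATP5IF1, which blocks ATP hydrolysis by the enzyme, was called at -1.09 ± 0.24. It read -1.19 and -1.76 in mammary gland, -0.77 and -0.69 in liver, -0.50 and -0.55 in mesenteric, -0.19 and -0.31 in omental and -0.64 and -0.54 in subcutaneous adipose tissue. The inhibitor thus had the same order of tissues as the subunits COX5B, NDUFB8 and ATP5PO at its ends, lowest in mammary gland and highest in omental adipose tissue.

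Marker genes of other cells moved with this comparison. The adipocyte markers had a median of -0.18 (range -3.09 to 1.84) in mammary gland and of 1.19 (-0.76 to 2.18) and 1.52 (-0.69 to 1.82) in the visceral depots, with 5 of 7 called lower in mammary gland. The 5 fibroblast markers moved farther, all of them called lower in mammary gland with a median difference of -3.26. Of 5 endothelial markers 3 were called lower (median -1.14), of 12 myeloid markers 5 (median -0.75) and of 3 muscle markers 1 (median -0.69). The epithelial markers ran the other way, with 8 of 10 called higher in mammary gland (median 2.76). In bulk tissue, fewer cells of a type and less RNA per cell cannot be told apart, and the part of these markers in the result was not tested.

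Between liver and mammary gland the count of called members was near that of all genes, while the median lay apart. Of 47, 6 were higher in liver and 0 higher in mammary gland, against 9.34% and 4.44% of 4325 genes (13.8% in either direction). The median was 0.60, against -0.01 for all genes, with 33 members above 0 in both orientations and 6 below. The median was 1.38 in complex II, 1.06 in complex III, 0.67 in ATP synthase, 0.53 in complex I and 0.36 in complex IV. No complex I subunit was called, the nearest being NDUFS4 at 0.95 ± 0.02 and NDUFA12 at 0.93 ± 0.47. With the Cy5 orientation alone 14 members were called, 13 of them higher in liver, against 17.8% of all genes. With the Cy3 orientation alone 5 of 48 were, all higher in liver, against 15.7%. Markers of cell types moved here too: 2 of 3 hepatocyte markers were called higher in liver (median 5.56) and 8 of 10 epithelial markers higher in mammary gland (median -2.23). Of 12 myeloid markers 5 were called higher in liver (median 0.91), and of 5 fibroblast markers 2 were called higher in mammary gland (median -0.75). Their part in the result was not tested.

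SDHD had the largest difference, 1.85 ± 0.21 (3.61-fold higher in liver), and UQCRC2 followed complex II in direction at 1.23 ± 0.17, with clones at 1.60 ± 0.20 and 0.86 ± 0.13. COX5B was at 1.05 ± 0.05. For these 3 genes both liver arrays were above both mammary arrays. ATP5PB, the b subunit of the peripheral stalk, read 0.12 and 0.23 in liver and -0.81 and -0.86 in mammary gland, a difference of 1.01 ± 0.08. It read -0.24 and -0.43 in mesenteric, 0.07 and -0.17 in omental and 0.50 and 0.30 in subcutaneous adipose tissue, which was the highest.

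The other 2 calls had wide dye errors. UQCRQ read 0.90 and 1.01 in liver but 0.01 and -0.98 in mammary gland, a difference of 1.44 ± 0.55. ATP5F1A read 0.35 and -0.27 in liver and -1.50 and -0.60 in mammary gland, a difference of 1.09 ± 0.76 that came to 1.85 in the Cy3 orientation and 0.33 in the Cy5 orientation. COX5A went the other way on the mean, at -0.30 ± 0.47, and changed sign between orientations. Its mammary arrays read -0.03 and -0.99.

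**Figure D2:**
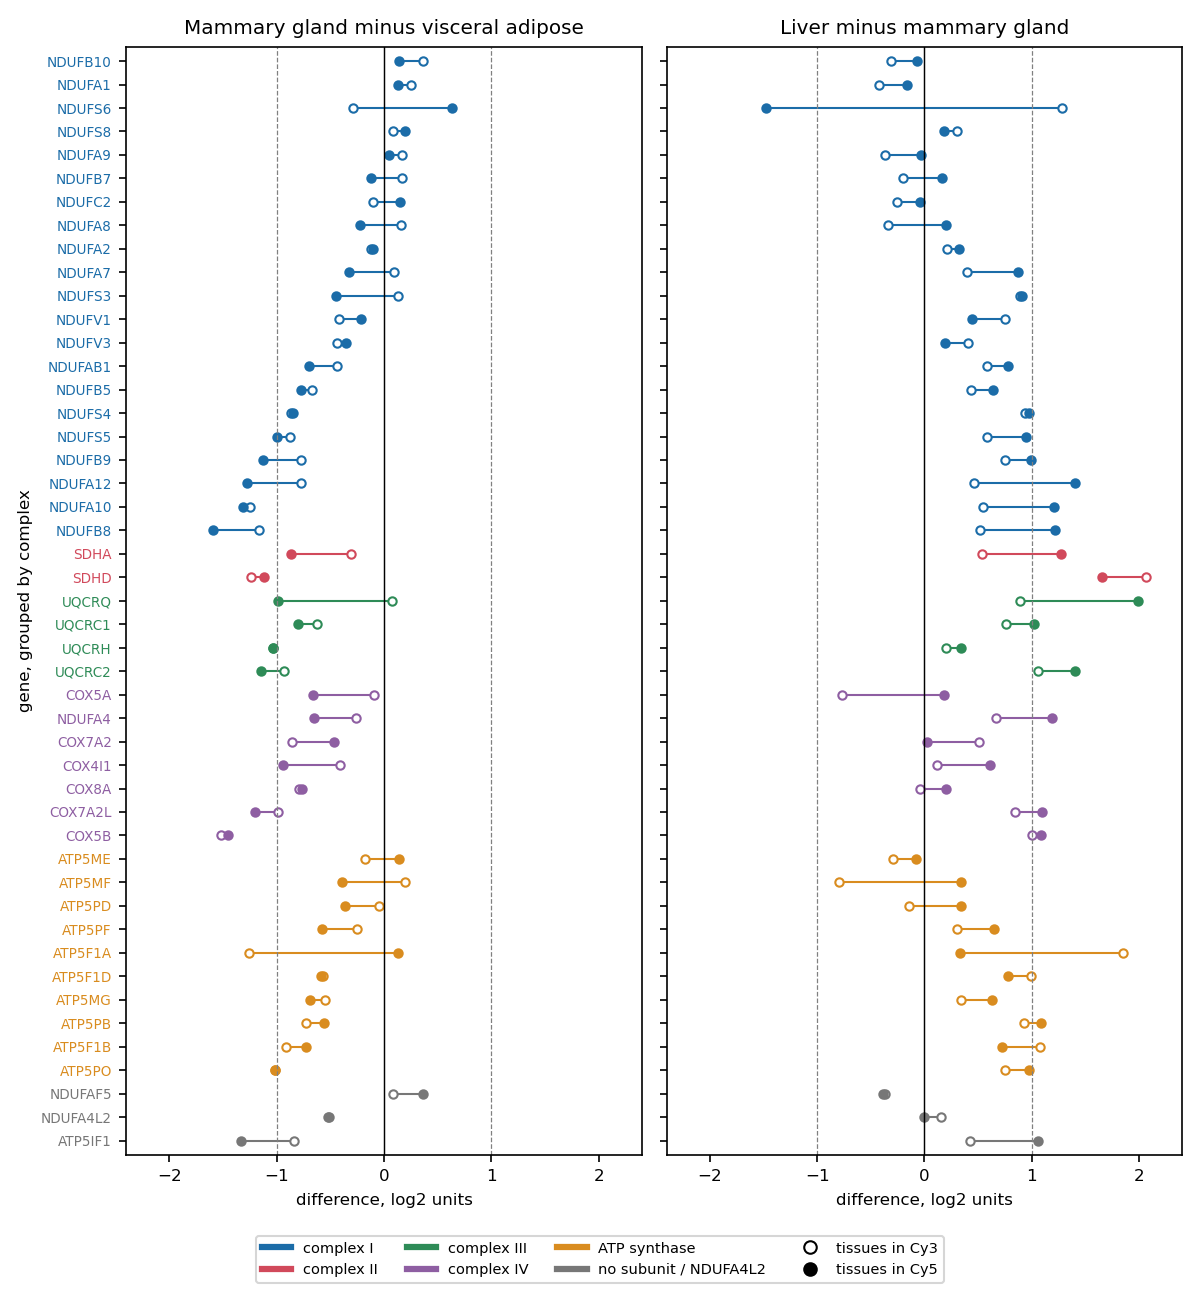
Difference of each member between mammary gland and the visceral depots (left) and between liver and mammary gland (right), in log2 units, with open circles for tissues in Cy3, filled circles for tissues in Cy5 and dashed lines at -1 and 1. On the left 32 of 47 members lie below 0 in both orientations and 5 above, and on the right 33 lie above 0 and 6 below; long lines such as NDUFS6 and ATP5F1A mark genes whose orientations disagree.

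Liver and the visceral depots were close to each other. Of 48 members 0 were called, against 13.4% of 4330 genes (7.41% higher in liver and 5.96% higher in visceral adipose tissue), and the median of -0.10 was near that of all genes (-0.03). The members split by complex. Complex IV had 6 of 7 subunits lower in liver in both orientations and a median of -0.39, with COX8A at -0.69 ± 0.13, COX5A at -0.67 ± 0.19 and COX5B at -0.44 ± 0.08. NDUFA4, at 0.47 ± 0.06, was its only subunit that was higher in liver. Complex II was higher in liver, with SDHD at 0.67 ± 0.14 and SDHA at 0.32 ± 0.08. Complex I and ATP synthase had medians of -0.08 and -0.02, each with as many subunits above 0 in both orientations as below (8 and 8, 4 and 4).

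Complex III held the widest range in this comparison. UQCRQ was 0.98 ± 0.03 higher in liver, just under the rule, and UQCRH 0.76 ± 0.07 lower. UQCRH read -0.27 and -0.44 in liver and -0.46 and -0.78 in mammary gland, against 0.46 and 0.27 in mesenteric, 0.67 and 0.23 in omental and 0.28 and -0.03 in subcutaneous adipose tissue. All 3 of its clones were lower in liver, at -0.95 ± 0.06, -0.80 ± 0.10 and -0.54 ± 0.04. UQCRQ read -0.26 and -0.06 in mesenteric, 0.16 and 0.07 in omental and -0.14 and -0.18 in subcutaneous adipose tissue, all below both liver arrays. The core proteins UQCRC1 (0.18 ± 0.04) and UQCRC2 (0.19 ± 0.06) lay between. Subunits of one complex thus had opposite signs, with dye errors far smaller than the differences.

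**Figure D3:**
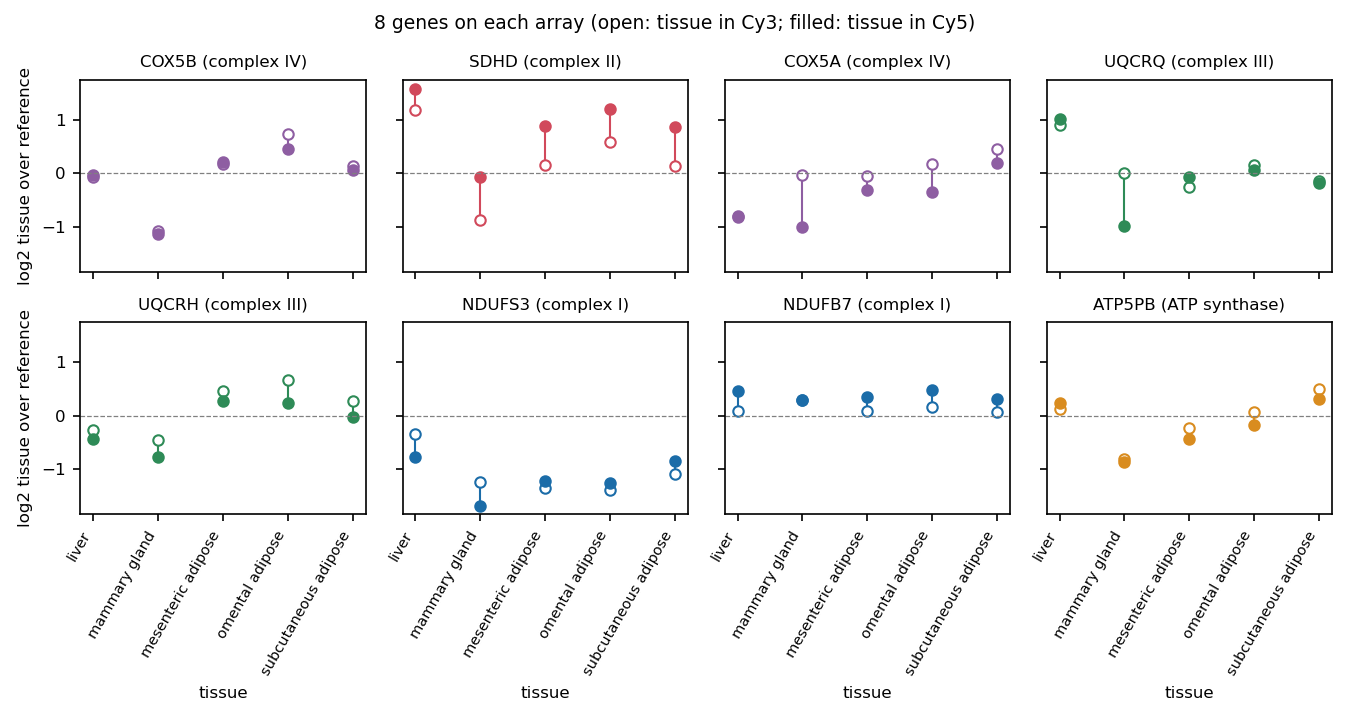
Level of 8 genes as log2 of tissue over reference on each of the 10 arrays, with open circles for the tissue in Cy3 and filled circles for Cy5. COX5B is low in mammary gland alone, UQCRQ high in liver, UQCRH lower in liver and mammary gland than in the depots on the mean, COX5A lowest on the mean in liver and highest in subcutaneous adipose tissue, NDUFS3 below 0 throughout, and NDUFB7 level, with a range of 0.13 over the tissues.

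Mesenteric and omental adipose tissue differed little in any one gene but in a common direction. Of 48 members 0 were called, and 1.41% of 4340 genes were (0.829% higher in mesenteric and 0.576% higher in omental adipose tissue). The members' median was -0.23, against -0.01, and 36 of 48 (75%) were lower in mesenteric adipose tissue in both orientations, against 34.5% of all genes; 3 were higher in both. Of the members lower in mesenteric adipose tissue, NDUFA10 (-0.60 ± 0.13), SDHA (-0.60 ± 0.14), NDUFV1 (-0.48 ± 0.10), NDUFA12 (-0.46 ± 0.01) and NDUFA4 (-0.46 ± 0.04) lay farthest from 0. ATP synthase had 8 of 10 and complex IV 6 of 7 subunits lower in both orientations. NDUFAF3, an assembly factor, stood at 0.78 ± 0.75, with orientations that disagreed in size.

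The genes of the tricarboxylic acid cycle lay on the same side (8 of 9 lower in both orientations, median -0.17). So did 21 of 38 mitochondrial ribosomal protein genes (7 higher) and 6 of 7 carriers and porins (1 higher). All 3 electron transfer flavoprotein genes were lower too, while 10 mitochondrial protein import genes were even (3 lower, 3 higher). The 45 genes with symbols starting RPL or RPS, nearly all of them cytosolic ribosomal proteins, lay on the other side (31 higher in mesenteric, 3 lower, median 0.19, but -0.12 without centring). Marker lists were mixed. Of 7 adipocyte markers 3 were lower in mesenteric adipose tissue in both orientations and 1 higher (median difference -0.37), and the higher one, LIPE, was the only one called (1.14 ± 0.40). Of 12 myeloid markers 6 were lower and 2 higher (median -0.17), of 5 fibroblast markers 3 and 2 (median -0.32), and of 5 endothelial markers 1 was lower and 4 higher (median 0.37). Their part in the result was not tested. One omental array, that of the Cy5 orientation, has conflicting dye labels, and without it the members' median was -0.30.

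In the sample labelled subcutaneous adipose, 0 of 48 members were called against the visceral depots, where 9.95% of 4332 genes were (6.23% higher in subcutaneous and 3.72% higher in visceral tissue). The median was -0.16, with 31 members lower in subcutaneous tissue in both orientations and 10 higher, but it was 0.47 without centring, where the median of all genes was 0.64. ATP5PB was the highest at 0.59 ± 0.01 and COX5A stood at 0.46 ± 0.06, while NDUFB9 (-0.68 ± 0.07) and NDUFA10 (-0.60 ± 0.07) were among the lowest. Against liver, 2 of 48 were called, where 17.6% of 4347 genes were (7.98% higher in liver and 9.64% higher in subcutaneous tissue): UQCRQ, higher in liver (1.12 ± 0.07), and COX5A, higher in subcutaneous tissue (-1.13 ± 0.13 as liver minus subcutaneous). COX5A, a matrix-side subunit of complex IV, read 0.46 and 0.19 in subcutaneous, 0.17 and -0.34 in omental and -0.05 and -0.31 in mesenteric adipose tissue, and -0.80 and -0.81 in liver. The median against liver was 0.04. Without the Cy5 arrays it was -0.07, with 4 members called against 19.9% of all genes, and without centring it was -0.63, where the median of all genes was -0.74.

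Against mammary gland, 4 of 47 members were called, all higher in subcutaneous tissue, where 10.3% of 4331 genes were (3.6% higher in mammary gland, 13.9% in either direction). They were ATP5PB (-1.23 ± 0.07 as mammary minus subcutaneous), COX5B (-1.19 ± 0.02), COX7A2L (-1.06 ± 0.05) and NDUFS5 (-1.06 ± 0.04). NDUFS5, a complex I accessory subunit, read 0.07 and 0.16 in subcutaneous adipose tissue and -0.95 and -0.94 in mammary gland. It read -0.08 and 0.14 in mesenteric, -0.08 and -0.02 in omental adipose tissue and -0.37 and 0.01 in liver, so that only mammary gland lay apart. The count of 4 is no larger a share than that of all genes, but 31 members were lower in mammary gland in both orientations and 6 higher, with a median of -0.43 against -0.04. Without the Cy3 arrays 9 were called, 8 of them lower in mammary gland, against 17.5% of all genes, and without the Cy5 arrays 5, against 14.1%.

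Over the 7 comparisons 15 of 48 members (31.2%) were called at least once and 33 never, the same share as among all named genes (31.4% of 4364). The called members were 4 of complex I, 1 of complex II, 3 of complex III, 3 of complex IV, 3 of ATP synthase, and ATP5IF1. A set of 12 of 47 members varied by less than 0.5 log2 units over the 5 tissue means (25.5%, against 28.6% of all genes). It held 8 subunits of complex I (NDUFA1, NDUFA8, NDUFA9, NDUFB7, NDUFB10, NDUFC2, NDUFS6 and NDUFS8), 3 of ATP synthase (ATP5ME, ATP5MF and ATP5PD) and NDUFAF5, and no subunit of complexes II, III or IV. NDUFS6 belongs to it only on the mean, since its arrays read 0.75 and -0.68 in liver and -0.53 and 0.80 in mammary gland. Of the other 35 members 32 were lowest in mammary gland, against 29.9% of the named genes with at least that range. A low mammary level itself widens a gene's range, so this count adds no support beyond the count over all 47 members. The 0.5 limit was chosen after seeing the values. Channel intensities were not analysed here, so whether the level members were well above background is unknown.

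The SD of the differences across members was 0.52 for liver minus mammary gland and 0.47 for mammary gland minus the visceral depots, against 0.31 and 0.20 for their dye contrasts, the part of the same values that changes sign with the dyes. For all named genes it was 0.89 and 0.66. The RPL and RPS genes (0.41 and 0.52) and the MRPL and MRPS genes, for mitochondrial ribosomal proteins (0.50 and 0.31), had spreads of similar size or smaller, so a spread below that of genes at large was not particular to the respiratory chain.

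Other genes of mitochondrial energy metabolism were described from lists. In mammary gland against the visceral depots, 2 of 9 genes of the tricarboxylic acid cycle and pyruvate dehydrogenase were called, both lower in mammary gland (OGDH at -1.08 ± 0.12 and SUCLA2 at -1.04 ± 0.02, median of the list -0.76). The 3 genes that bring electrons from fatty acid oxidation to ubiquinone had a median of -1.36, with ETFDH at -1.64 ± 0.12 and ETFA at -1.36 ± 0.03 called. Of 7 carriers and porins 1 was called lower, the outer membrane channel VDAC1 (-1.44 ± 0.06). None of the 38 MRPL and MRPS genes was called, and their median was -0.07 (0.10 without centring). The RPL and RPS genes did move with the members: 12 of 45 were lower in mammary gland, with RPL37 at -1.78 ± 0.34 and RPL37A at -1.46 ± 0.28, and the median was -0.59.

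Between liver and mammary gland those lists came apart. The RPL and RPS genes had a median of 0.08 (-0.13 without centring) with 1 of 45 called, whereas 5 of 7 carriers and porins were higher in liver, among them the carnitine carrier SLC25A20 (2.47 ± 0.07) and the phosphate carrier SLC25A3 (1.66 ± 0.06). Of the 9 genes of the tricarboxylic acid cycle list, 3 were called higher in liver, with FH (fumarase) at 2.38 ± 0.42 and SUCLG2 at 1.65 ± 0.06. Citrate synthase, CS, went against them, at -1.50 ± 0.00. Against the visceral depots CS was 2.29 ± 0.15 log2 units lower in liver. CS stood for 1 clone, so its name has no second clone to compare. The same held for most members, since only 4 of 48 had several elements.

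**Figure D4:**
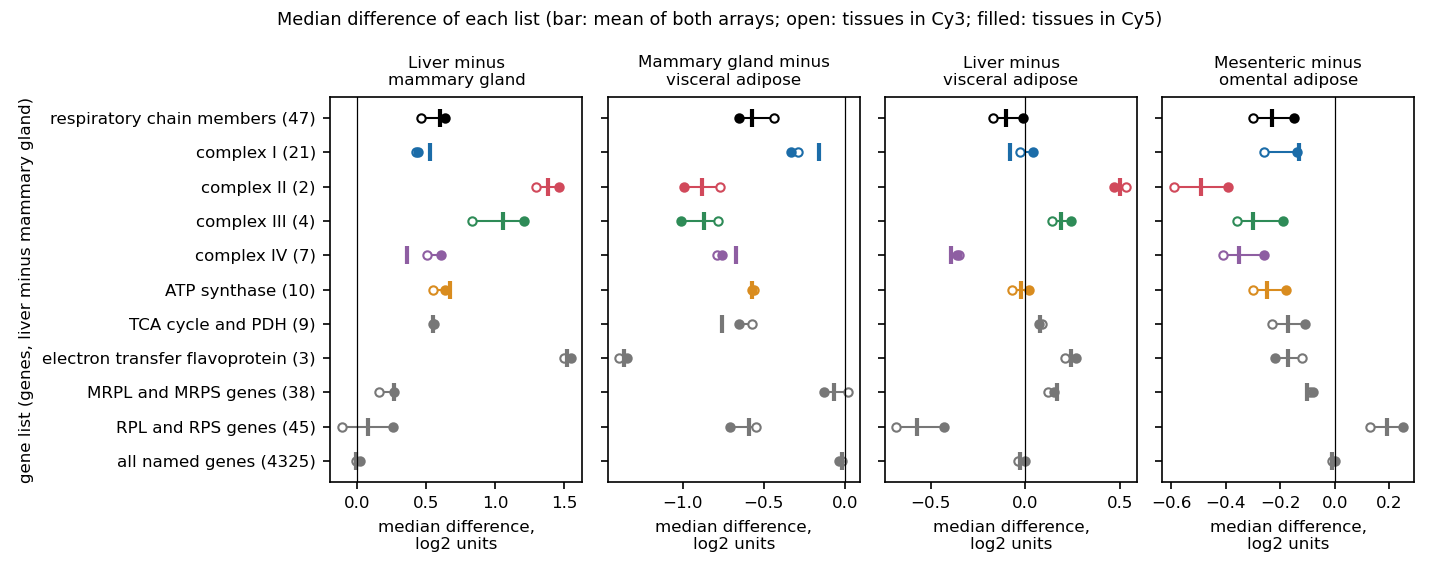
Median difference of each gene list in 4 comparisons, in log2 units (short bars, from the means of both orientations; open circles, tissues in Cy3; filled circles, tissues in Cy5; number of genes in brackets for liver minus mammary gland). A bar can lie outside its circles because the median is taken again over gene means; the members, complex II and complex III sit above 0 for liver minus mammary gland (0.60, 1.38 and 1.06), and the RPL and RPS genes join the members below 0 against visceral adipose tissue for mammary gland (-0.59 and -0.57).

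Of 5 genes that regulate mitochondrial biogenesis, none was called in liver against mammary gland (median -0.29) or in mammary gland against the visceral depots (0.07). NRF1, a transcription factor of nuclear respiratory chain genes, differed by -0.29 ± 0.06 and -0.09 ± 0.00, and the receptor ESRRA by 0.19 ± 0.06 and 0.24 ± 0.13. PPARGC1A and TFAM were not among the named elements.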

How the data were processed

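The authors deposited 1 value per spot and array, made from images of a ScanArray 4000 scanner in GenePix 4.0, per the labels' protocols, and these values are taken here as log2 ratios of the dyes, since 94 share a ceiling at 16.61, the log2 of a round number. For background correction, normalisation and genome build, the sources name nothing (not given in the sources used here). Ceiling values were set missing (2402 others were missing as deposited), the ratios of Cy3-tissue arrays were multiplied by -1, and each array was centred on its median (-1.32 to 0.71 as deposited). The direction, Cy5 over Cy3, is likely, not stated; arrays of 1 tissue correlated at -0.78 to -0.66 before turning, and with the opposite direction every sign changes. One omental array (Cy5 orientation) has conflicting labels, of which the dye label was used.

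Neighbouring spots are duplicates (r 0.83 to 0.92). Names came through a print layout, the best of 1032192 pairings by agreement of clones of 1 gene (mean cosine 0.56 over 1002 pairs of genes other than members, next 0.17, face value 0.02), on 20 of 22 plates. A single clone can carry a wrong name. Symbols were checked against the RefSeq gene table of ARS-UCD2.0 (5467 of 5472 elements matched), which changed 0 of them. Elements of a gene were averaged.

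The text names every member past the rule, fixed core genes and paralogs, members that are no subunit, ends of each complex, and from other lists at most the 2 largest called genes in each direction, with some members added after seeing their values. Members and lists were chosen with earlier results of these data known. Scripts (Python 3.11.15, numpy 2.4.6, pandas 2.3.3) were tested on simulated data. Centring, normalisation, dye orientation, depots and thresholds were varied. No sequence is printed, since no table of sequences was used here.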

Additional observations from a re-analysis of the deposited data

How the results depend on the processing

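No member past the rule changed sign under any setting run, but some settings could not have shown a change. With 1 orientation alone the rule already requires the same sign in both. Without centring the shifts were below the 1 log2 unit that the rule asks for. Of 22 called differences of members, 12 stayed past the rule without centring and 11 after quantile normalisation. Shares in brackets are those of all named genes called under the same setting. Without centring the median of all genes moved by -0.22 for liver minus mammary gland, 0.17 for mammary gland minus visceral, 0.63 for subcutaneous minus visceral, -0.31 for mesenteric minus omental, -0.68 for liver minus subcutaneous and -0.46 for mammary gland minus subcutaneous, and the members' median moved by the same amounts. In that order the members' medians became 0.38, -0.40, 0.47, -0.55, -0.63 and -0.89, with the third and the fifth turned in sign. Members called were then 3 (14%), 4 (8.68%), 3 (20.7%), 0 (2.14%), 4 (35.4%) and 20 (23.7%). After quantile normalisation 3 were called for liver minus mammary gland (11.5%), 5 for mammary gland minus visceral (9.4%) and 2 for mammary gland minus subcutaneous (13.3%, median -0.25), and the median for subcutaneous minus visceral was -0.21. At 1.5-fold the calls were 24 for liver minus mammary gland (28.5%), 22 for mammary gland minus visceral (23.8%), 7 for liver minus visceral (27.6%), 4 for subcutaneous minus visceral (21.1%) and 3 for mesenteric minus omental (4.42%). With both orientations past 2-fold they were 2 for liver minus mammary gland (10.3%) and 6 for mammary gland minus visceral (6.58%). Which comparison had the most calls thus changed with the setting.

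With mesenteric adipose tissue alone the calls were 3 for mammary gland (10.2%), 2 for liver (14.2%, median 0.02, turned in sign) and 1 for subcutaneous (10.9%, median -0.03); with omental alone the subcutaneous median was -0.28. Without the omental array of conflicting labels, liver minus visceral (13.6%) and mesenteric minus omental (2.48%) had 1 call each, and the subcutaneous median was -0.12. Of the 10 members called for mammary gland minus visceral, 7 stayed past the rule without that array. Some alternatives were added after seeing the data. Against the mean of all 3 depots liver had 1 call (13.3%), and centring each print block left 0 for liver minus subcutaneous (17.7%).

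With 1 dye orientation at a time, calls ran from 5 to 14 for liver minus mammary gland (15.7% to 17.8%, median 0.44 to 0.64), 7 to 12 for mammary gland minus visceral (9.34% to 13%), 1 to 2 for liver minus visceral (14.4% to 14.9%), 0 to 2 for subcutaneous minus visceral (9.85% to 11.4%), 0 to 1 for mesenteric minus omental (2.35% to 2.48%), 2 to 4 for liver minus subcutaneous (19.8% to 19.9%, median -0.07 to 0.12, turned in sign with Cy3 alone) and 5 to 9 for mammary gland minus subcutaneous (14.1% to 17.5%, median -0.49 to -0.37). Members lowest in mammary gland numbered 24 to 36 of 47 over all settings, the lowest without centring. The cause of these changes was not tested. No paired analysis was possible because each tissue is 1 sample and no test was made. Promoter motifs were not run. Signal over background is unknown.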
